A study of Mus musculus with 24 samples.

Results

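The surgery by benzene interaction compares a pair of differences. It takes the change that transverse aortic constriction (TAC) brought in mice breathing benzene, and subtracts the change that TAC brought in mice breathing filtered air. It was computed gene by gene on the log2 scale from all 24 of the 24 libraries of the series, since each of the 4 groups enters it. All mice were male and of the C57BL/6 strain. Surgery was followed by 1 week of recovery and then by 6 weeks in HEPA-filtered air or in 50 ppm benzene, for 6 hours a day on 5 days of the week. The groups were Sham/Air (sham surgery, filtered air), Sham/Benzene (sham surgery, benzene), TAC/Air (constriction, filtered air) and TAC/Benzene (constriction, benzene), with 6 libraries in each. The tissue was the left ventricle with the septum, from which poly-A RNA was sequenced. The labels give no age of the animals and do not say which mouse each library came from.

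TAC narrows the aorta, so that the left ventricle must pump against a raised pressure. The ventricle answers with hypertrophy, with a return of genes of the fetal heart such as the natriuretic peptides, and with fibrosis, and leukocytes enter the tissue. Benzene is a solvent and combustion product that is metabolised largely by the enzyme CYP2E1, and it is known for its toxicity to the bone marrow. An interaction value above 0 means that a gene responded to TAC more upward, or less downward, in benzene than in air. A value below 0 means the opposite, and either can come from a benzene difference among TAC hearts, among sham hearts, or both.

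Total counts ranged from 4170660 to 14632231 per library. The lowest total belonged to Sham/Air replicate 1, which stood apart: its Spearman correlations with the other libraries were 0.852 to 0.913, against 0.963 to 0.996 among the other 23. The labelled tissue was checked on adult contractile and calcium-handling genes, which all 24 libraries expressed, with summed levels of 68630 to 136400 CPM, the count scaled to a common library size. The variance between libraries of a group was compared with counting error over 10875 genes. The median ratio was 8.75 in Sham/Air, 6.23 in Sham/Benzene, 5.40 in TAC/Air and 2.87 in TAC/Benzene, so the TAC/Benzene libraries agreed most closely. Because nothing ties libraries to animals, the p-values speak for the spread among libraries alone, which may be technical. RNA came from whole tissue, so fewer cells of a type and less RNA per cell cannot be told apart for any gene below.

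Of 13571 genes tested, 23 (0.169%) had a TAC response that differed between benzene and air at a Benjamini-Hochberg adjusted p under 0.05 in edgeR's quasi-likelihood test. The response was higher in benzene for 9 genes (0.0663%) and lower for 14 (0.103%). The higher genes were Mmp8, Retnlg, S100a9, S100a8, Lcn2, Sele, Myot, Fkbp5 and Pfkp. The lower genes were Clec3a, Chad, Car3, Cyp2e1, Ecrg4, Wif1, Tgtp2, Scara3, Mgl2, H2-Q6, H2-Aa, Cd74, H2-Ab1 and Irf9. At an unadjusted p under 0.05 there were 637 genes (4.69%), 251 higher (1.85%) and 386 lower (2.84%), and the median interaction over all genes was 0.00 (log2). Over all genes, 6914 interaction values were above 0 and 6657 below. The TAC response itself was called for 2193 genes in air (16.2%), with 1195 higher (8.81%) and 998 lower (7.35%). In benzene it was called for 2257 genes (16.6%), with 1176 higher (8.67%) and 1081 lower (7.97%). The interaction combines 4 group means, and its median standard error was 0.23 on the log2 scale, against 0.16 for each TAC response.

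The 23 genes differed in where their interaction came from. For 14 of them the TAC response was called in benzene and not in air, for 7 it was called in both, and for 2, Irf9 and Scara3, in air and not in benzene. The fitted TAC responses had opposite signs in the 2 exposures for 16 genes and the same sign for 7. Benzene against air was called among TAC hearts for 21 of the 23, where 0.582% of all genes were called, and among sham hearts for none, where 0.0221% of all genes were called (0.00737% higher and 0.0147% lower). The sham difference nevertheless had the sign opposite to the TAC difference in 19 of the 23 and so added to the interaction. For 7 of the 9 higher genes and 7 of the 14 lower genes, over 70% of the interaction came from the TAC hearts. The 6 TAC/Benzene libraries lay above all TAC/Air libraries for 8 of the 9 higher genes (1.5% of all genes did so) and below all of them for 13 of the 14 lower genes (1.21% of all genes). These counts use the same contrast that called the genes and are given as a description.

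**Figure D1:**
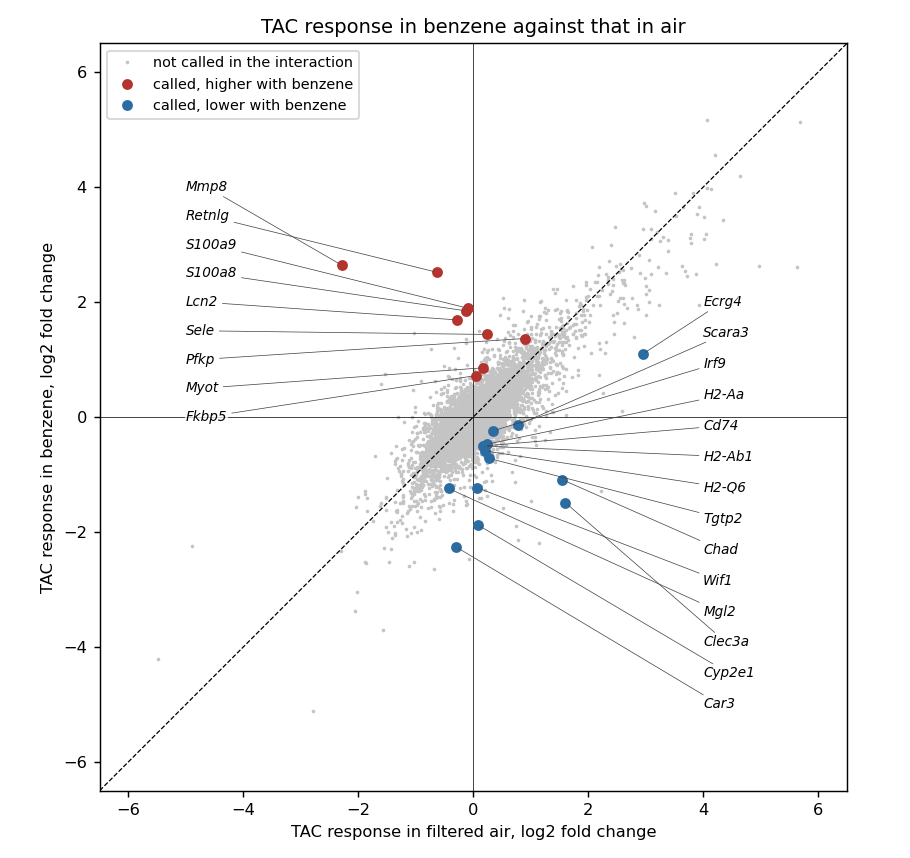
TAC response in filtered air (x axis) against TAC response in benzene (y axis), both as log2 fold change over sham, with 1 point per tested gene and the dashed line at equal responses. Red points are the 9 genes with a higher response in benzene and blue points the 14 with a lower one; S100a9 lies at -0.09 and 1.89, Chad at 1.55 and -1.09.

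Genes of neutrophil granules and cytoplasm made up 5 of the 9 higher calls. S100a8 and S100a9 encode the subunits of calprotectin, Lcn2 encodes lipocalin 2, which binds bacterial siderophores, Retnlg is a resistin-like gene of mouse neutrophils, and Mmp8 encodes neutrophil collagenase. S100a9 was at 3.23, 5.04 and 5.53 CPM in Sham/Air (lowest, median and highest library), 2.68, 5.02 and 8.50 CPM in Sham/Benzene, 3.57, 3.85 and 5.97 CPM in TAC/Air, and 15.9, 18.8 and 20.1 CPM in TAC/Benzene. All 6 TAC/Benzene libraries were above the other 18, and the other 3 groups overlapped. The TAC response of S100a9 was -0.09 ± 0.22 (log2 ± SE) in air and 1.89 ± 0.20 in benzene, an interaction of 1.98 ± 0.30 (adjusted p = 0.00173). S100a8 followed the same order at lower levels, with 2.21, 2.96 and 4.68 CPM in TAC/Air and 9.69, 11.04 and 15.8 CPM in TAC/Benzene, and its interaction was 1.98 ± 0.34 (adjusted p = 0.00742).

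Lcn2 had the smallest adjusted p of all genes. Its levels were 4.43, 6.00 and 9.11 CPM in Sham/Air, 2.85, 5.52 and 6.91 in Sham/Benzene, 3.78, 5.22 and 6.17 in TAC/Air, and 15.3, 17.0 and 20.5 CPM in TAC/Benzene. The TAC/Benzene libraries did not overlap any other group, and the interaction was 1.97 ± 0.25 (adjusted p = 4.605e-04). Retnlg was scarce, with 39 to 61 counts per library in TAC/Benzene against 2 to 14 in TAC/Air, that is 4.82 and 0.55 CPM at the median, and its interaction was 3.14 ± 0.50 (adjusted p = 0.00259). Mmp8 had 14 to 38 counts per library in TAC/Benzene and 0 to 3 in TAC/Air, with 0 to 7 in Sham/Benzene and 3 to 7 in Sham/Air. Its interaction was 4.93 ± 0.86 (adjusted p = 0.00742), and with counts this low the fitted value depends on the prior count. Mmp8 was below the level required of a named gene and was chosen after its values were seen.

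The list of neutrophil genes held 33 members, of which 15 passed the filter on low counts and 18 did not. The filter admits a gene that is expressed in a single group, so genes high only in TAC/Benzene could enter through it. Mmp8 entered in this way, with 14 to 38 counts per library in TAC/Benzene and at most 7 in any other library. Its direction was therefore set by the filter, and it adds no support to the counts that follow. Of the 15, Mmp8 included, 5 were called higher and 0 lower in the interaction, and their median interaction was 0.81, against 0.00 over all genes. At a mean of at least 1 CPM, which leaves Mmp8 out, 4 were called higher. Among the 15, values were above 0 for 12 and below 0 for 3. Cxcr2 may also have passed the filter through TAC/Benzene. Its medians were 0.59, 0.77 and 0.55 CPM in Sham/Air, Sham/Benzene and TAC/Air, and 2.38 CPM in TAC/Benzene. The list figures are therefore a description only. Without the Sham/Air replicate that stood apart, 6 were called higher. The added gene was Msrb1, at 0.48 ± 0.11 in that fit and 0.31 with all libraries. With offsets for GC content and transcript length 1 gene, G0s2, was called lower. Csf3r, the receptor for granulocyte colony-stimulating factor, was at 3.16, 3.37 and 4.07 CPM in TAC/Air and 6.97, 7.61 and 9.02 CPM in TAC/Benzene, with an interaction of 0.70 ± 0.27 (adjusted p = 0.776). The chemokine receptor Cxcr2 had an interaction of 1.40 ± 0.56 (adjusted p = 0.846) and the gelatinase Mmp9 one of 1.41 ± 0.35 (adjusted p = 0.170). G0s2, a lipase inhibitor gene of neutrophils that adipocytes also express, went the other way at -0.77 ± 0.25 (adjusted p = 0.560). It was at 52.9 to 92.0 CPM in Sham/Benzene and at 12.8 to 45.2 CPM over the other 18 libraries. These 4 genes did not pass the test with 24 libraries. With the offsets, edgeR's test called G0s2 lower (adjusted p = 0.0156). With the offsets and without Sham/Air replicate 1, it called G0s2 lower (adjusted p = 0.00753) and Mmp9 higher (adjusted p = 0.0355). The summed level of the 33 genes was 265.4 to 305.1 CPM in TAC/Benzene and 170.8 to 206.9 CPM in TAC/Air, while the sham libraries spanned 184.5 to 254.1 CPM with benzene and 79.6 to 207.5 CPM with air. Genes of erythroid cells, platelets and blood summed to lower levels in TAC/Benzene, with 150.2 to 166.2 CPM in TAC/Air and 133.8 to 145.6 CPM in TAC/Benzene.

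**Figure D2:**
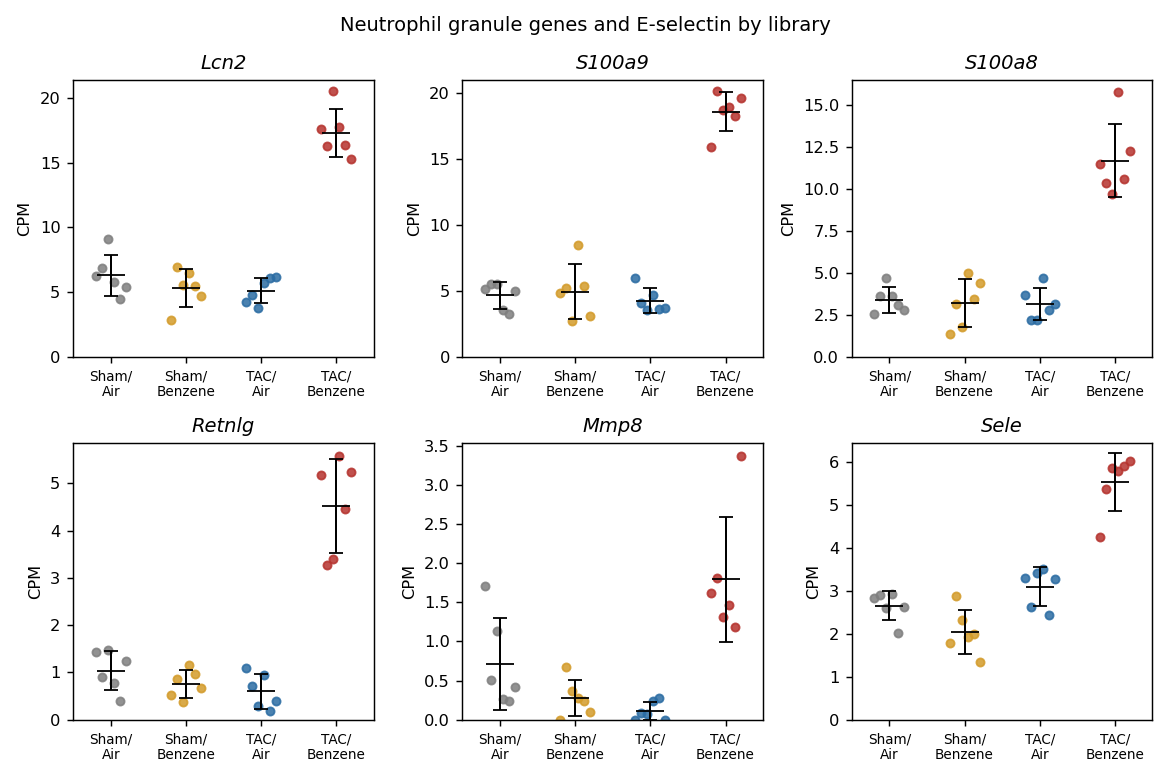
Levels in CPM (y axis, linear from 0) of Lcn2, S100a9, S100a8, Retnlg, Mmp8 and Sele in the 4 groups, with 1 point per library and the mean with its SD in black. The TAC/Benzene libraries lie above those of TAC/Air in all 6 panels, for S100a9 at 15.9 to 20.1 against 3.57 to 5.97 CPM.

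Sele encodes E-selectin, an adhesion molecule by which activated endothelium slows passing leukocytes. It was at 2.02, 2.73 and 2.92 CPM in Sham/Air, 1.33, 1.96 and 2.88 in Sham/Benzene, 2.44, 3.29 and 3.51 in TAC/Air, and 4.25, 5.82 and 6.03 CPM in TAC/Benzene. TAC/Benzene again lay above all other libraries. TAC raised Sele in benzene by 1.44 ± 0.16 (adjusted p = 1.097e-07), while its change in air was 0.24 ± 0.16 (adjusted p = 0.366). The interaction was 1.20 ± 0.23 (adjusted p = 0.0167), and without Sham/Air replicate 4 its adjusted p was 0.052. Sele was the only called gene among 18 tested endothelial adhesion and activation genes, whose median was 0.08. P-selectin (Selp), at 0.86 to 1.66 CPM in TAC/Air and 2.21 to 4.02 CPM in TAC/Benzene, had an interaction of 1.57 ± 0.37 (adjusted p = 0.103), and Vcam1 one of 0.63 ± 0.21 (adjusted p = 0.573), which was 0.42 without Sham/Air replicate 1.

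Transcripts of genes for antigen presentation by MHC class II went in the other direction. H2-Aa and H2-Ab1 encode the alpha and beta chains of the class II molecule I-A, and Cd74 encodes the invariant chain that guides class II molecules to the endosome. H2-Aa was at 52.0, 57.2 and 60.4 CPM in Sham/Air, 45.8, 57.9 and 60.6 in Sham/Benzene, 62.4, 66.5 and 72.5 in TAC/Air, and 35.3, 41.4 and 42.4 CPM in TAC/Benzene. The TAC/Air libraries were above all Sham/Air libraries, and the TAC/Benzene libraries were below all 18 others. TAC raised H2-Aa by 0.24 ± 0.08 in air (adjusted p = 0.0301) and lowered it in benzene, with a change of -0.47 ± 0.08 (adjusted p = 5.848e-05). The interaction was -0.71 ± 0.11 (adjusted p = 0.00173), and the sham groups differed by only -0.02 ± 0.08.

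Cd74 was at 133.7, 152.2 and 169.5 CPM in TAC/Air and 88.4, 92.2 and 97.6 CPM in TAC/Benzene, and its 12 sham libraries ran from 106.4 to 157.4 CPM. Its interaction was -0.69 ± 0.13 (adjusted p = 0.0167). H2-Ab1 was at 53.9, 57.6 and 60.3 CPM in TAC/Air and 32.9, 34.8 and 38.1 CPM in TAC/Benzene, and its interaction was -0.68 ± 0.13 (adjusted p = 0.0152). For both genes TAC/Benzene lay below TAC/Air without overlap, and for H2-Ab1 it overlapped Sham/Benzene, which reached down to 37.0 CPM. Offsets for GC content and transcript length ended the calls of Cd74 (adjusted p = 0.498) and H2-Ab1 (adjusted p = 0.648) when Sham/Air replicate 1 was in the fit. With the same offsets and without that library they were 0.000975 and 0.00496.

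All 9 tested genes of the 10 in the MHC class II list had interaction values below 0, with a median of -0.52, and 3 of them were called. A replicate block within each surgery, chosen after seeing the data, kept only the call of H2-Aa in edgeR's test (adjusted p = 0.0175). There the adjusted p was 0.084 for H2-Ab1 and 0.141 for Cd74. The beta chain gene H2-Eb1 had a value of -0.70 ± 0.23 (adjusted p = 0.545). Ciita, the transcriptional coactivator on which class II genes depend, had one of -0.52 ± 0.33 (adjusted p = 1.000), with 2.26 to 5.06 CPM in TAC/Air and 1.27 to 3.05 CPM in TAC/Benzene. The summed level of the class II genes was 326.3 to 380.7 CPM in TAC/Air and 205.0 to 218.8 CPM in TAC/Benzene. T, B and NK lymphocyte genes summed to 17.96 to 23.9 and 13.8 to 16.8 CPM in the same groups, and macrophage and monocyte genes to 801.4 to 881.1 and 682.6 to 760.6 CPM. Both marker sums were therefore lower in TAC/Benzene than in TAC/Air without overlap. Their part in the class II values was not tested.

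Class II and class I promoters are bound at a Y box, the letters ATTGG or their reverse complement, which the factor NF-Y recognises. Promoters of 17 of the 23 called genes were matched by symbol in the RefSeq table (build GRCm38.p6). Within 250 bases before the start, 7 of the 17 genes held a Y box on either strand in any of their promoters. Of all 32851 single promoters, 33.8% held one, so the figure for genes and the share of promoters are not counted alike. The last 150 bases before the start are shown for H2-Aa, the class II gene with the smallest p, and for H2-Q6, with Y boxes in capitals. The H2-Aa window is chr17:34287824-34287973 on the minus strand, and its box lies 48 to 44 bases before the start. The H2-Q6 window is chr17:35424700-35424849 on the plus strand.
H2-Aa: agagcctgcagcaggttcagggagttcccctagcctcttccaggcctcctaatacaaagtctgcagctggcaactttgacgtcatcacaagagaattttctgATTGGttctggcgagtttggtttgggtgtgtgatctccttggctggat
H2-Q6: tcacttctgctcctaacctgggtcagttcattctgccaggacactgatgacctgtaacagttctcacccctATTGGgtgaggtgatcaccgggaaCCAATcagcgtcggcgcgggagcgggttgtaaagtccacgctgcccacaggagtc

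H2-Q6 is a non-classical MHC class I gene. Its levels were 24.4, 27.4 and 29.0 CPM in TAC/Air and 17.7, 18.8 and 20.7 CPM in TAC/Benzene, with no overlap. The interaction was -0.80 ± 0.16 (adjusted p = 0.0303). H2-Q6 has near-identical relatives in the same gene cluster, so its count is uncertain, and its call ended in 12 of the 24 fits that each left out 1 library (highest adjusted p 0.0697, without TAC/Benzene replicate 2). With offsets for GC content and length its adjusted p was 0.210, and 0.0427 without Sham/Air replicate 1 as well.

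Interferon-inducible genes were the next group with values mostly below 0. Tgtp2 encodes an interferon-gamma-inducible GTPase of the immunity-related family. It was at 11.1, 12.6 and 23.01 CPM in Sham/Air, 13.8, 17.5 and 22.1 in Sham/Benzene, 15.4, 17.0 and 18.3 in TAC/Air, and 9.80, 10.5 and 11.3 CPM in TAC/Benzene. TAC/Benzene was below TAC/Air and Sham/Benzene without overlap. TAC lowered Tgtp2 in benzene, with a change of -0.72 ± 0.13 (adjusted p = 2.815e-04), and the value in air was 0.28 ± 0.14 (adjusted p = 0.181). The interaction was -0.998 ± 0.19 (adjusted p = 0.0167). Tgtp1, a near-identical neighbour with which reads may be shared, had an interaction of -0.90 ± 0.25 (adjusted p = 0.305).

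The Tgtp2 promoter is shown because it held both interferon motifs that were searched for. The interferon-stimulated response element was searched as GAAA, any 2 bases and GAAA again, on both strands. It was in any promoter of 1 of the 17 genes and in 2.98% of all single promoters. The gamma-activated sequence, searched as TTCNNNGAA, was in any promoter of 2 of the 17 genes and in 7.02% of all single promoters. In the window chr11:49064213-49064362 on the minus strand (GRCm38.p6), capitals mark the gamma-activated sequence 81 to 73 bases before the start and the response element 70 to 61 bases before it. A match describes the letters only.
Tgtp2: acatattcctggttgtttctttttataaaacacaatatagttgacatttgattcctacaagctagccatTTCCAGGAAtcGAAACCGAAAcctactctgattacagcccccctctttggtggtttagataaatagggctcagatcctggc

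Irf9 encodes the DNA-binding subunit of the factor that carries the type I interferon signal to such elements. It was at 17.3, 21.4 and 24.3 CPM in Sham/Air, 24.5, 27.1 and 30.4 in Sham/Benzene, 23.7, 27.2 and 30.2 in TAC/Air, and 21.8, 23.5 and 24.3 CPM in TAC/Benzene. Here the sham groups did not overlap, with Sham/Benzene above Sham/Air, while the TAC groups overlapped, and 35.1% of the interaction came from the TAC hearts. The interaction was -0.59 ± 0.12 (adjusted p = 0.0320), and its call ended in 16 of the 24 fits without 1 library, with adjusted p up to 0.0868 (without TAC/Benzene replicate 2). Irf9 was named after its values were seen. Of 40 tested interferon-stimulated genes, 33 had values below 0, the median was -0.30 and Irf9 was the only one called. Of the 40, 7 were lower and 0 higher at an unadjusted p under 0.05 (2.84% and 1.85% of all genes). Stat2, the partner of Irf9 in that factor, had a value of -0.70 ± 0.17 (adjusted p = 0.105), the GTPase gene Igtp one of -0.53 ± 0.13 (adjusted p = 0.120) and its relative Iigp1 one of -0.68 ± 0.28 (adjusted p = 0.902).

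**Figure D3:**
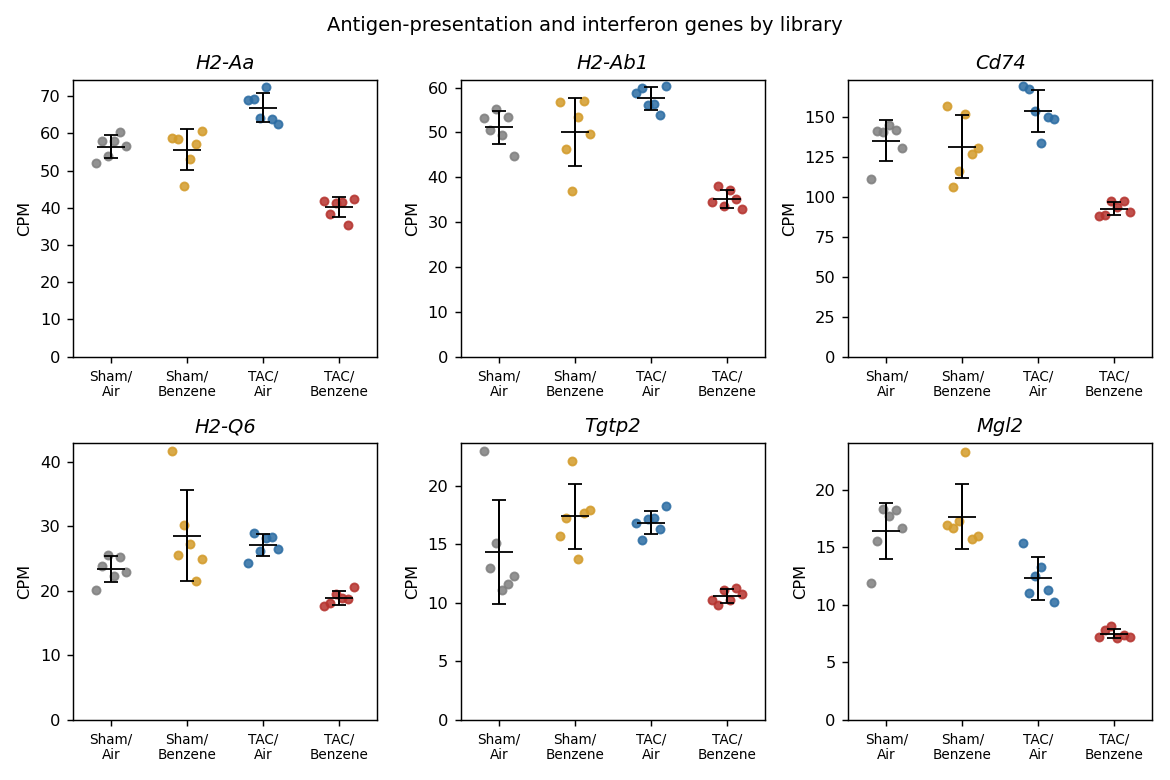
Levels in CPM (y axis, linear from 0) of H2-Aa, H2-Ab1, Cd74, H2-Q6, Tgtp2 and Mgl2 in the 4 groups, with 1 point per library and the mean with its SD in black. TAC/Benzene lies below TAC/Air without overlap in all 6 panels, for H2-Aa at 35.3 to 42.4 against 62.4 to 72.5 CPM.

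Mgl2 encodes a galactose-binding lectin of macrophages and dendritic cells. Its levels were 11.9, 17.2 and 18.4 CPM in Sham/Air, 15.8, 16.8 and 23.3 in Sham/Benzene, 10.2, 11.9 and 15.4 in TAC/Air, and 7.15, 7.28 and 8.12 CPM in TAC/Benzene. TAC lowered Mgl2 in both exposures, by 0.43 ± 0.12 in air and 1.24 ± 0.12 in benzene on the log2 scale. The interaction was -0.81 ± 0.17 (adjusted p = 0.0320), and its call ended in 16 of the 24 fits without 1 library, with adjusted p up to 0.0817 (without TAC/Benzene replicate 6). Among 24 tested macrophage and monocyte genes, Mgl2 was the only call, 18 values were below 0 and the median was -0.23. Of the 24, 9 were lower and 1 higher at an unadjusted p under 0.05 (2.84% and 1.85% of all genes). The pan-macrophage gene Adgre1 was at 27.5 to 36.9 CPM in TAC/Air and 20.7 to 26.0 CPM in TAC/Benzene, with an interaction of -0.50 ± 0.13 (adjusted p = 0.167). The fractalkine receptor gene Cx3cr1 had a value of -0.71 ± 0.20 (adjusted p = 0.305), and Retnla, a gene of alternatively activated macrophages, one of -1.47 ± 0.39 (adjusted p = 0.218). Chil3, which monocytes and neutrophils both express, had a value of 2.49 ± 0.66 (adjusted p = 0.218), at 0.08 to 1.09 CPM in TAC/Air and 0.68 to 2.55 CPM in TAC/Benzene.

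Clec3a and Chad, both known from cartilage, had the lowest interaction values of the called genes. Clec3a encodes a C-type lectin of cartilage, Chad encodes chondroadherin, a leucine-rich protein of cartilage matrix, and Ecrg4 encodes augurin, the precursor of secreted peptides. Clec3a was at 2.12, 2.71 and 7.96 CPM in Sham/Air, 1.85, 5.56 and 10.6 in Sham/Benzene, 7.70, 9.46 and 11.3 in TAC/Air, and 1.18, 2.19 and 3.55 CPM in TAC/Benzene. TAC raised it in air by 1.60 ± 0.31 (adjusted p = 5.895e-04) and lowered it in benzene, with a change of -1.49 ± 0.32 (adjusted p = 0.00119), so the interaction was -3.09 ± 0.45 (adjusted p = 0.0013). The Sham/Benzene libraries spanned a wide range and overlapped all other groups.

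Chad was at 1.14, 2.29 and 2.77 CPM in Sham/Air, 2.22, 4.26 and 6.44 in Sham/Benzene, 5.38, 6.24 and 7.06 in TAC/Air, and 1.36, 1.81 and 3.23 CPM in TAC/Benzene. TAC/Air lay above Sham/Air and above TAC/Benzene without overlap. Its TAC response was 1.55 ± 0.25 in air and -1.09 ± 0.25 in benzene, both called, and the interaction was -2.64 ± 0.35 (adjusted p = 5.94e-04). Of that, 60.6% came from the TAC hearts. Ecrg4 rose with TAC in both exposures, from 1.30 CPM in Sham/Air to 11.5 CPM in TAC/Air at the median, and from 2.68 CPM in Sham/Benzene to 6.56 CPM in TAC/Benzene. The responses were 2.95 ± 0.25 and 1.095 ± 0.22, an interaction of -1.85 ± 0.34 (adjusted p = 0.0145). For Ecrg4 the share from the TAC hearts was 50.3%.

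Of 27 cartilage and tendon genes, 19 were tested, 2 were called lower, 0 were called higher, and 17 had values below 0. Their median was -0.78. At an unadjusted p under 0.05, 11 of the 19 were lower and 0 higher (2.84% and 1.85% of all genes). The list as a whole still responded strongly to TAC in both exposures, with a median response of 1.60 in air and 1.56 in benzene and summed levels of 804.8 to 903.9 CPM in TAC/Air and 778.3 to 831.5 CPM in TAC/Benzene, which overlapped. Comp and Fmod, which had large TAC responses, did not pass the test with 24 libraries. Comp, a thrombospondin of cartilage, had TAC responses of 4.35 in air and 3.42 in benzene and an interaction of -0.92 ± 0.30 (adjusted p = 0.560). The collagen-binding proteoglycan gene Fmod had responses of 3.69 and 2.53 and an interaction of -1.16 ± 0.30 (adjusted p = 0.187). With offsets for GC content and transcript length both were called in edgeR's test, at adjusted p = 0.00717 for Comp and 0.0311 for Fmod. Hapln1, a scarce link protein gene at 0 to 1.73 CPM, had an interaction of -2.63 ± 0.77 (adjusted p = 0.367). Genes of atrium, mesothelium, valve and nerve moved with this list: 12 of 13 tested had interaction values below 0, none was called and their median was -0.68. Their summed level was 4123 to 4893 CPM in TAC/Benzene and 3094 to 4383 CPM in TAC/Air, and among sham libraries 253.2 to 689.3 CPM with benzene and 238.4 to 399.7 CPM with air. In the TAC groups these sums were close to the level of the natriuretic peptide gene Nppa alone. Nppa was at 4015 to 4780 CPM in TAC/Benzene and 2965 to 4229 CPM in TAC/Air, so the sums say little about the other members. The part of atrial, mesothelial, valve and nerve genes in the cartilage values was not tested.

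Wif1 encodes a secreted inhibitor of Wnt ligands, and was at 3.13, 6.23 and 8.06 CPM in Sham/Air, 4.07, 8.25 and 10.8 in Sham/Benzene, 4.99, 6.57 and 7.73 in TAC/Air, and 2.93, 3.37 and 4.13 CPM in TAC/Benzene. TAC lowered it in benzene, with a change of -1.23 ± 0.19 (adjusted p = 2.948e-05), and the value in air was 0.07 ± 0.19 (adjusted p = 0.841). The interaction was -1.30 ± 0.27 (adjusted p = 0.0320). Scara3, a class A scavenger receptor gene, was at 8.78, 9.74 and 10.9 CPM in TAC/Air and 4.70, 6.41 and 7.25 CPM in TAC/Benzene. TAC raised it in air by 0.78 ± 0.13, while the value in benzene was -0.14 ± 0.13, and the interaction was -0.91 ± 0.19 (adjusted p = 0.0317). The call of Wif1 ended in 18 of the 24 fits without 1 library (adjusted p up to 0.0856, without TAC/Benzene replicate 6) and that of Scara3 in 14 (up to 0.0725, without TAC/Benzene replicate 5). Of 20 fibroblast genes, Wif1 was the only one called and the median was -0.14. At an unadjusted p under 0.05, 4 of the 20 were lower and 0 higher (2.84% and 1.85% of all genes). Without Sham/Air replicate 1, 3 were called lower and the median was -0.08. Another Wnt modulator, Dkk3, had a value of -1.09 ± 0.24 (adjusted p = 0.0633).

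Cyp2e1, the gene of the main enzyme of benzene oxidation, was at 1.65, 2.34 and 2.90 CPM in Sham/Air, 2.85, 3.90 and 5.38 in Sham/Benzene, 2.07, 2.49 and 2.97 in TAC/Air, and 0.51, 1.17 and 1.49 CPM in TAC/Benzene. These levels rest on 7 to 65 counts per library. TAC/Benzene was below all 18 other libraries. TAC lowered Cyp2e1 in benzene, with a change of -1.88 ± 0.21 (adjusted p = 2.453e-07), and the value in air was 0.07 ± 0.21 (adjusted p = 0.903). The interaction was -1.95 ± 0.30 (adjusted p = 0.00173), of which 58.5% came from the TAC hearts. Cyp2e1 is also a liver gene, and the summed level of 17 liver genes was 12.9, 23.3 and 194.9 CPM in Sham/Benzene, against 8.52 to 15.2 CPM over the other 3 groups. Of the 6 liver genes tested, Cyp2e1 included, 5 had interaction values below 0 and 4 of these an unadjusted p under 0.05, with a median of -2.17. Apoa2 was at 17.6 CPM in Sham/Benzene replicate 1, 5.46 CPM in replicate 3 and 3.02 CPM in replicate 4. Without replicate 1 the interaction of Cyp2e1 was -1.86 ± 0.30 (adjusted p = 0.00412). That fit still holds replicates 3 and 4, and the part of liver transcripts in the interaction of Cyp2e1 was not tested.

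Car3 encodes carbonic anhydrase 3, an abundant protein of adipocytes and slow muscle. Its levels were 3.58, 4.77 and 5.68 CPM in Sham/Air, 2.50, 6.90 and 8.74 in Sham/Benzene, 2.78, 3.49 and 5.54 in TAC/Air, and 0.93, 1.02 and 2.04 CPM in TAC/Benzene. TAC/Benzene was below every other library, and the interaction was -1.95 ± 0.39 (adjusted p = 0.0266). The call ended in 10 of the 24 fits without 1 library, with adjusted p up to 0.0697 (without TAC/Benzene replicate 2). Car3 was the only called gene of 12 tested adipocyte genes, whose median was 0.05, with 7 values above 0. At an unadjusted p under 0.05, 2 of the 12 were lower, Car3 and Cfd, and 0 were higher (2.84% of all genes were lower). The summed levels overlapped between TAC/Air and TAC/Benzene, at 6726 to 8540 and 7042 to 8304 CPM. Car3 is a very small part of these sums, which rest on other genes, and adipocyte content was not tested. Cyp2e1 was the only one called of 26 genes of xenobiotic metabolism, whose median was 0.00.

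**Figure D4:**
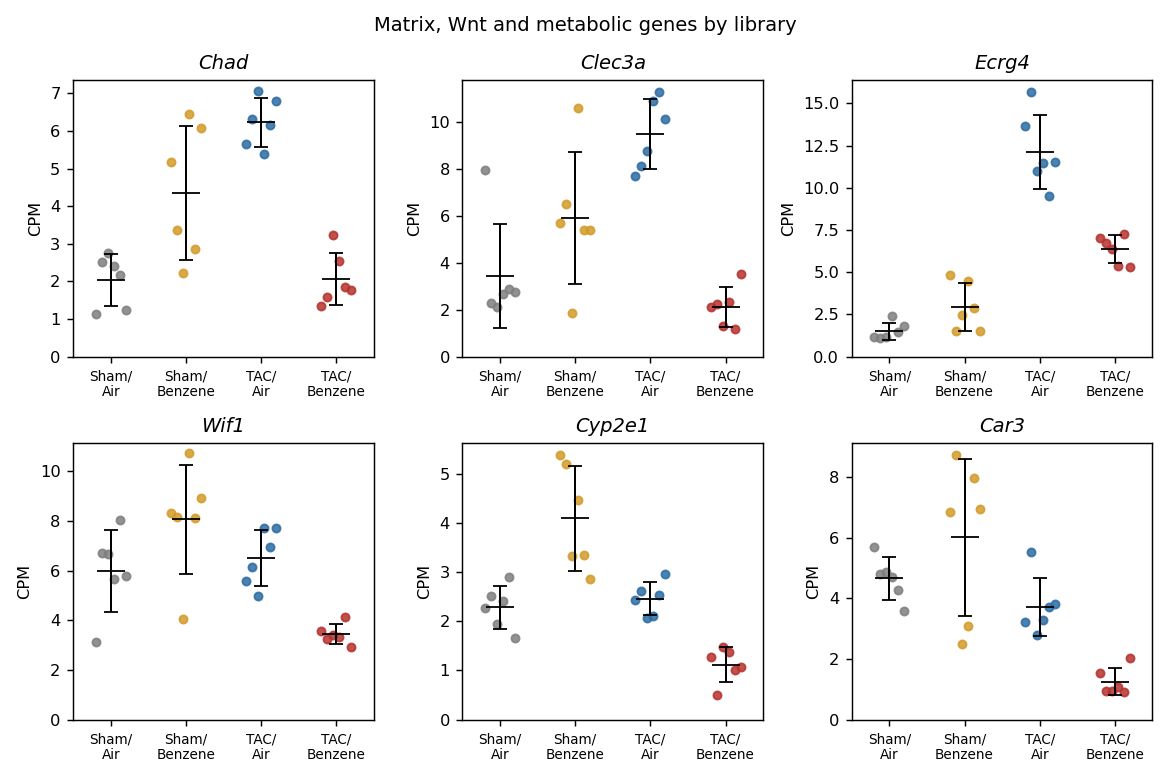
Levels in CPM (y axis, linear from 0) of Chad, Clec3a, Ecrg4, Wif1, Cyp2e1 and Car3 in the 4 groups, with 1 point per library and the mean with its SD in black. TAC/Benzene lies below TAC/Air in all 6 panels, and the Sham/Benzene libraries are widely spread, for Clec3a from 1.85 to 10.6 CPM.

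The remaining higher calls, Myot, Pfkp and Fkbp5, had values under 1. Myot encodes myotilin, a protein of the Z-disc. It was at 81.0, 88.3 and 117.3 CPM in Sham/Air, 79.9, 86.1 and 90.9 in Sham/Benzene, 97.9, 104.4 and 107.3 in TAC/Air, and 140.4, 149.5 and 174.7 CPM in TAC/Benzene. TAC/Benzene was above all other libraries, and the interaction was 0.69 ± 0.12 (adjusted p = 0.00742). Pfkp encodes the platelet-type isoform of the glycolytic enzyme phosphofructokinase, and TAC raised it in both exposures, by 0.90 ± 0.07 in air and 1.37 ± 0.07 in benzene. Its levels were 110.9, 115.0 and 122.9 CPM in TAC/Air and 145.8, 151.6 and 158.8 CPM in TAC/Benzene. The interaction of 0.47 ± 0.10 had an adjusted p of 0.0435, which exceeded 0.05 in 20 of the 24 fits without 1 library (up to 0.112, without TAC/Benzene replicate 2). None of the other 23 tested genes of glycolysis and glucose uptake was called, and the median of the 24 was 0.03, or 0.16 without Sham/Air replicate 1.

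Fkbp5 encodes a co-chaperone of the glucocorticoid receptor and is itself induced by glucocorticoids. It was at 28.7, 30.3 and 33.5 CPM in Sham/Air, 22.6, 23 and 27.9 in Sham/Benzene, 26.8, 31.9 and 38.1 in TAC/Air, and 34.8, 40.0 and 43.8 CPM in TAC/Benzene. Sham/Benzene lay below Sham/Air without overlap, the TAC groups overlapped, and 46.9% of the interaction of 0.67 ± 0.12 (adjusted p = 0.0141) came from the TAC hearts. TAC raised Fkbp5 in benzene by 0.72 ± 0.09 and its change in air was 0.05 ± 0.09 (adjusted p = 0.746). The glucocorticoid-responsive list had 22 tested members, of which 2 were called higher, Fkbp5 and Lcn2, the latter also in the neutrophil list. Its median was 0.17. Fam107a, another member, had a value of 0.64 ± 0.16 (adjusted p = 0.177).

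The standard readouts of pressure overload responded to TAC in both exposures, and none of the 8 followed here passed the interaction test. The atrial natriuretic peptide gene Nppa was at 154.6, 272.3 and 291.9 CPM in Sham/Air, 174.5, 298.0 and 383.9 in Sham/Benzene, 2965, 3587 and 4229 in TAC/Air, and 4015, 4288 and 4780 CPM in TAC/Benzene. Its interaction was 0.08, with a 95% interval of -0.35 to 0.50. The interval was -0.26 to 0.63 for the B-type peptide gene Nppb, -0.32 to 0.34 for the beta myosin heavy chain gene Myh7, and -0.12 to 0.62 for the alpha chain gene Myh6. It was -0.08 to 0.38 for the calcium pump gene Atp2a2, -0.64 to 0.29 for the collagen gene Col1a1, and -0.16 to 0.99 for periostin (Postn), a product of activated fibroblasts. Sham/Air replicate 1 moved several of these values. Without it the interaction of Postn was 0.07 instead of 0.41, that of Nppb 0.34 instead of 0.18, that of Nppa 0.18, that of Myh6 0.11 instead of 0.25, that of Atp2a2 0.06 instead of 0.15 and that of Myh7 -0.05 instead of 0.01. None of these was called with or without it. Differences of any size within these intervals are compatible with the data, and the intervals do not show that the responses were alike.

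Acta1, the skeletal actin gene that is re-expressed in the loaded ventricle, came closest among the 8. It was at 279.0, 476.0 and 533.6 CPM in Sham/Air, 360.5, 421.9 and 693.4 in Sham/Benzene, 2385, 2507 and 2646 in TAC/Air, and 4515, 4666 and 5030 CPM in TAC/Benzene. The TAC groups did not overlap, the sham groups did, and benzene against air among TAC hearts was called at 0.91 ± 0.14 (adjusted p = 5.347e-04). The interaction was 0.85 ± 0.19 (95% interval 0.45 to 1.24, adjusted p = 0.0917), and without Sham/Air replicate 1 it was 0.95 ± 0.15 (adjusted p = 0.00135). Nmrk2, which encodes a nicotinamide riboside kinase of muscle, was at 53.2 to 72.2 CPM in TAC/Air and 100.8 to 111.0 CPM in TAC/Benzene. Its interaction was 0.90 ± 0.20 (adjusted p = 0.0642), and 0.98 ± 0.17 (adjusted p = 0.00554) without that library. The actin-binding repeat gene Xirp2 had a value of 1.16 ± 0.40 (adjusted p = 0.620), with Sham/Air replicate 1 at 3301 CPM, and without that library the value was 0.53 ± 0.15 (adjusted p = 0.195). Of 25 tested genes of the fetal and stress program, 0 were called with all libraries and 2 were called higher without Sham/Air replicate 1. The median was 0.10 with that library and 0.25 without it. With limma-voom in place of edgeR, 5 were called higher and 0 lower, and the same counts came with offsets for GC content and length. At an unadjusted p under 0.05, 6 were higher and 2 lower (1.85% and 2.84% of all genes). Summed levels of the 26 listed genes were 37010 to 41990 CPM in TAC/Air and 45470 to 47500 CPM in TAC/Benzene, without overlap.

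**Figure D5:**
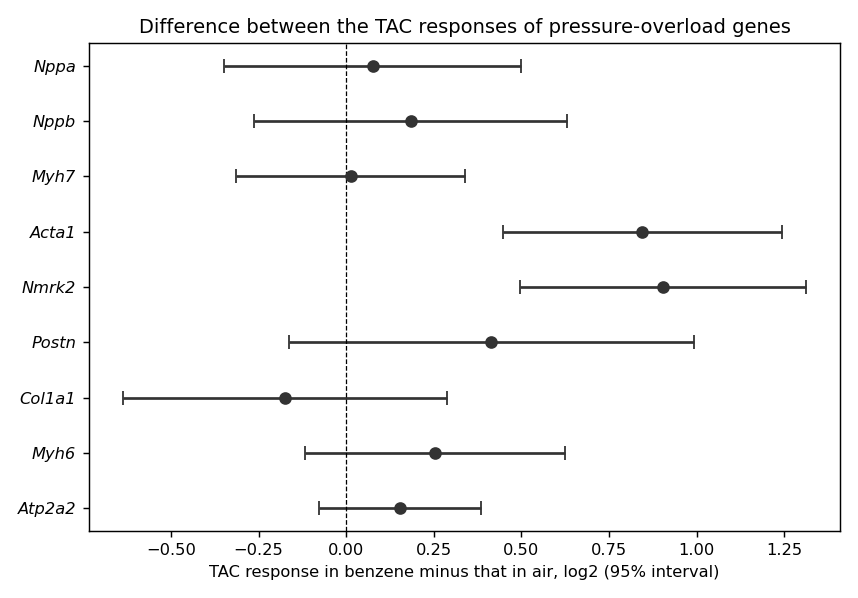
Interaction values (TAC response in benzene minus that in air, log2, x axis) of the 8 pressure-overload genes and Nmrk2, as points with 95% intervals. The intervals of 7 genes cross 0; those of Acta1 (0.45 to 1.24) and Nmrk2 (0.50 to 1.31) do not, and neither passed adjustment over all genes.

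Leaving out Sham/Air replicate 1 had the largest effect on the count of any single library. Then 49 of 13665 genes were called (0.359%), 23 higher and 26 lower. All 23 genes above remained called, and 26 were added. The 14 added higher genes included Acta1, Nmrk2, the small heat shock protein gene Hspb6 (0.66 ± 0.14, adjusted p = 0.0234) and the uridine-cytidine kinase gene Uck2 (0.73 ± 0.17, adjusted p = 0.0444). Also added were Tacc2 (0.50 ± 0.10), which encodes a coiled-coil protein of the centrosome, and Rab3ip (0.36 ± 0.08), which encodes an exchange factor for a small GTPase. The 12 added lower genes included the matrix protein genes Abi3bp (-0.92 ± 0.17), Efemp1 (-1.09 ± 0.23) and Thbs2 (-0.59 ± 0.11) and the Wnt modulator Dkk3 (-1.10 ± 0.24). Also among them were the interferon genes Iigp1 (-0.95 ± 0.20), Tgtp1 (-1.09 ± 0.20) and Stat2 (-0.63 ± 0.14), the ferritin receptor gene Scara5 (-0.43 ± 0.10), and the eosinophil chemokine gene Ccl11 (-1.60 ± 0.33). Except for Acta1, these genes were named after their values were seen.

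Several further gene lists held no called interaction. All 51 tested genes of the extracellular matrix list were without a call, with median TAC responses of 1.57 in air and 1.44 in benzene and a median interaction of -0.15. Values were below 0 for 36 of the 51. At an unadjusted p under 0.05, 12 were lower and 0 higher, where 2.84% of all genes were lower. With offsets for GC content and length 3 were called lower, and without Sham/Air replicate 1 only Thbs2 was. Summed matrix levels were 12300 to 12870 CPM in TAC/Air and 12320 to 12770 CPM in TAC/Benzene. The 33 tested genes of fatty acid oxidation had a median TAC response of -0.46 in both exposures and a median interaction of -0.06, or -0.01 without Sham/Air replicate 1. For 51 genes of the respiratory chain the medians were -0.34, -0.37 and -0.03, the last being 0.02 without that library. Of 25 complement and coagulation genes, 23 had values below 0, with a median of -0.28, and 9 were lower and 0 higher at an unadjusted p under 0.05. Their summed level was 2378 to 2559 CPM in TAC/Air and 2059 to 2210 CPM in TAC/Benzene, without overlap. None of the 25 was called. Nor was any gene called among 26 p53 targets (median 0.00) or 31 genes of the Nrf2 antioxidant and metallothionein list (median -0.01).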

How the data were processed

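Whole-number read counts per gene symbol were deposited by the authors for 24 libraries in 1 table, not normalized. The submitters' processing notes list the mm9 build and the tools STAR, DESeq2 and FastQC 0.11.9; which program did the counting, with what annotation and strand setting, is not stated there, so reads of overlapping or antisense genes cannot be told apart. Sample titles gave groups and replicate numbers. Of 25229 symbols, 5678 had no count; the expression filter of edgeR 4.0.16 (R 4.3.3), set to at least 10 counts and a total of at least 15, kept 13571, and the others held 0.0747% of counts. After TMM scaling, edgeR's robust quasi-likelihood model took 1 coefficient for each group over the 24 libraries, from which 5 contrasts were tested: the interaction and the 4 simple comparisons. The call threshold was a Benjamini-Hochberg adjusted p of 0.05 over all genes. A standard error is the log2 value divided by the square root of F, and intervals are at 95%. CPM values use TMM-scaled library sizes.

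The members, the 38 gene lists and the naming rule were chosen with earlier results of these data known; lists are described and not tested. The rule named up to 12 called genes per direction with a mean of at least 1 CPM, up to 3 called members of each list with at least 2, and the 8 pressure-overload genes. Other list members and genes called in other settings were named after their values were seen. No pair of libraries agreed within sampling noise (lowest chi-square per degree of freedom 1.81), so none was merged. Alternatives were DESeq2 1.42.0, limma-voom (limma 3.58.1) with quality weights, no filter, relative log expression size factors, a mean of at least 1 CPM, offsets for GC content and length (GENCODE vM21, loess span 0.5, 98.5% of genes matched), a replicate block, and the omission of each library. The offsets without Sham/Air replicate 1 and the replicate block within each surgery were added after seeing the data. The scripts were tested on simulated counts. Promoters were matched by symbol in a RefSeq table of another build than the counts.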

Additional observations from a re-analysis of the deposited data

Results flagged for a closer look

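The TAC response differed between benzene and air, by the test of the difference itself, for all 23 called genes. Higher values in benzene, on the log2 scale, were 4.93 for Mmp8, 3.14 for Retnlg, 1.98 for S100a9, 1.98 for S100a8, 1.97 for Lcn2, 1.20 for Sele, 0.69 for Myot, 0.67 for Fkbp5 and 0.47 for Pfkp. Lower values were -3.09 for Clec3a, -2.64 for Chad, -1.95 for Car3, -1.95 for Cyp2e1, -1.85 for Ecrg4, -1.30 for Wif1, -0.998 for Tgtp2 and -0.91 for Scara3. The immune genes among the lower ones were at -0.81 (Mgl2), -0.80 (H2-Q6), -0.71 (H2-Aa), -0.69 (Cd74), -0.68 (H2-Ab1) and -0.59 (Irf9).

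Single libraries stood far from the rest of their group, by Dixon's criterion, 38 times in 260 groups of 6 (65 genes in 4 groups), where chance flags about 1 in 20 groups. Sham/Air replicate 1 accounted for 20 of the 38. It was above the other Sham/Air libraries in CPM for Abi3bp (31.3, next 16.9), Atp2a2 (23280, next 17030), Ccl11 (19.3, next 8.71), Clec3a (7.96, next 2.90), Hapln1 (1.42, next 0.50), Iigp1 (137.8, next 68.0), Myh6 (42090, next 27280) and Myh7 (423.9, next 353.2). The same held for Pfkp (69.6, next 62.1), Postn (229.8, next 98.7), Tgtp2 (23.01, next 15.1), Thbs2 (75.3, next 55.6), Vcam1 (93.5, next 52.7) and Xirp2 (3301, next 902.7). It was below them for Acta1 (279.0, next 463.0), G0s2 (12.8, next 34.7), Nppa (154.6, next 262.6), Nppb (122.7, next 295.4), Stat2 (13.6, next 19.7) and Tacc2 (276.4, next 343.6).

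In Sham/Benzene, replicate 4 was high for Dkk3 (53.3 CPM, next 26.8), Fkbp5 (27.9, next 24.4), Fmod (21.7, next 11.5), G0s2 (92.0, next 63.9) and Mgl2 (23.3, next 17.3). Sham/Benzene replicate 1 was high for Apoa2 (17.6, next 5.46), Ttr (11.1, next 3.24) and Nmrk2 (22.0, next 13.4). In the other Sham/Air libraries, replicate 3 was low for Chil3 (0.16, next 0.81) and replicate 5 was low for Sele (2.02, next 2.60). In TAC/Air, replicate 5 was high for Csf3r (4.07, next 3.43), replicate 4 low for Hspb6 (621.1, next 943.9) and replicate 3 low for Selp (0.86, next 1.40). In TAC/Benzene, replicate 6 was high for Iigp1 (56.4, next 45.3) and Mmp8 (3.37, next 1.81) and low for G0s2 (30.5, next 36.1), replicate 5 low for Dkk3 (44.2, next 47.3) and replicate 1 low for Sele (4.25, next 5.37).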

How the results depend on the processing

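Interaction calls were 9 higher and 14 lower in the reported test. They were 28 and 29 with DESeq2, 49 and 42 with limma-voom, 29 and 32 with GC and length offsets, and 95 and 80 with those offsets on 23 libraries. All 23 genes were called in each of these except with the offsets on 24 libraries, which kept 19. TAC against sham in air gave 1195 higher and 998 lower genes, against 1933 and 1801 with limma-voom, 2115 lower with offsets, and 1950 and 2397 with offsets on 23 libraries. In benzene 1176 and 1081 became 2335 and 2144 with limma-voom, 1947 lower with offsets, and 2205 and 2661 with offsets on 23 libraries. Benzene against air in TAC gave 40 and 39, against 86 and 85 (DESeq2), 288 and 266 (limma-voom), 113 and 119 (offsets), and 314 and 287 (offsets on 23 libraries). In sham hearts it gave 1 and 2, against 16 and 12 (DESeq2), 6 and 6 (offsets), 18 and 16 (offsets on 23 libraries), 1 lower with limma-voom, 0 and 1 without a filter, and 1 lower at a mean of at least 1 CPM. Cartilage genes called lower were 4 with offsets and 5 with offsets on 23 libraries, where glucocorticoid-responsive genes called higher were 4. Comp and Fmod were among the cartilage genes called in both of these settings. The cause of these shifts was not tested. Libraries also differed in their rank correlation with the GC content of genes, from -0.719 (Sham/Air replicate 1) to 0.717 (Sham/Air replicate 4). It was -0.561 to -0.297 in Sham/Benzene replicates 1 to 3 and 0.455 to 0.582 in replicates 4 to 6. In TAC/Air the order was the reverse, at 0.495 to 0.524 in replicates 1 to 3 and -0.625 to -0.313 in replicates 4 to 6. The part of these trends in the calls was not tested.

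By the criterion that every pair correlate above 0.1, the replicate numbers did not pair the samples. Within a surgery 9 of 12 same-numbered pairs did (median 0.246, range -0.0327 to 0.47), and across surgeries 0 of 24 (median -0.238). Of the 24 libraries, 8 correlated best with their own number in the other group of the same surgery. With the number as a replicate block, 7 genes were higher and 7 lower in the interaction, all among the 23, 24 and 22 for benzene in TAC, 0 higher in sham, and 1 class II gene was called lower. With the number as a replicate block within each surgery, chosen after seeing the data, 7 genes were higher and 6 lower, and 12 of the 23 kept their call. Adjusted p rose to 0.074 for Mmp8, 0.084 for Sele and H2-Ab1, 0.085 for Scara3, 0.0996 for Mgl2, 0.116 for Car3, 0.141 for Cd74, 0.157 for Wif1, 0.167 for H2-Q6, 0.184 for Irf9 and 0.210 for Pfkp, and fell to 0.048 for Acta1. In that fit 1 class II gene was called lower, and 2 genes were higher and 1 lower for benzene in sham.

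Leaving out each library gave 7 to 23 higher and 8 to 26 lower interaction calls. The ranges were 1053 to 1652 and 847 to 1517 for TAC in air, 1009 to 1864 and 912 to 1803 for TAC in benzene, 27 to 121 and 25 to 113 for benzene in TAC, and 0 to 3 and 1 to 2 for benzene in sham. List calls were 5 to 6 (neutrophil), 3 (class II), 2 (cartilage) and 2 (glucocorticoid). Of the 23 genes, 7 higher and 8 lower were called in all 24 of these fits, and none of the 23 changed sign in any setting. Without a filter, 19 of the 23 were called; Irf9, Mgl2, Pfkp and Scara3 were not. Single-gene interactions under other settings kept direction and call in 1885 cases, lost the call in 135, gained it in 106 and changed sign in 15, all of genes that were not called. Col1a1 became 0.047 with offsets. Nppa became -0.038 without Sham/Benzene replicate 3, and ran up to 0.18 without Sham/Air replicate 1. Myh7 became -0.0049 with limma-voom, -0.0055 without a filter, -0.14 with offsets on 23 libraries, and ran from -0.066 to 0.10 over the fits without 1 library, with 10 of them below 0. Low counts limit Mmp8, Retnlg, Hapln1, Ttr, Apoa2, Chil3, Cxcr2, Selp, Retnla and Ccl11, each with a mean of 1 CPM or below in some group.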

Other observations

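Genes outside the 23 that DESeq2, limma-voom, the GC and length offsets and the fit without Sham/Air replicate 1 all called, but the test with 24 libraries did not, numbered 7. Acta1 (0.85 ± 0.19), Nmrk2 (0.90 ± 0.20), Tacc2 (0.45 ± 0.12) and Rab3ip (0.41 ± 0.10) had interaction values above 0 in that test, and Dkk3 (-1.09 ± 0.24), Stat2 (-0.70 ± 0.17) and Scara5 (-0.49 ± 0.12) values below 0. In TAC/Benzene, Tacc2 was at 399.8, 450.9 and 479.4 CPM (lowest, median and highest library), against 280.3, 296.5 and 341.5 CPM in TAC/Air, without overlap. Rab3ip was at 127.5, 130.7 and 136.4 CPM in TAC/Benzene and 98.6, 107.1 and 112.0 CPM in TAC/Air, again without overlap. Scara5 fell with TAC in both exposures and was at 20.8, 22.8 and 23.5 CPM in TAC/Air and 14.5, 16.2 and 17.6 CPM in TAC/Benzene.

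Ccl11, the eosinophil-attracting chemokine, was at 1.14, 2.04 and 3.28 CPM in TAC/Air and 0.65, 0.69 and 1.57 CPM in TAC/Benzene, against 6.02 to 19.3 CPM over both sham groups, and its interaction was -1.31 ± 0.42 (adjusted p = 0.535). Thbs2 was at 33.7, 36.3 and 39.2 CPM in TAC/Benzene and at 44.2 CPM or more in every other library, with an interaction of -0.47 ± 0.15 (adjusted p = 0.501). In 1 Sham/Benzene library the liver transcripts Apoa2 and Ttr were at 17.6 and 11.1 CPM. Of the 38 lists, 12 held at least 1 gene called in the interaction.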
